A study of Homo sapiens with 4 samples.

Results

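The genes described here are 42 members of the ATF4 programme, the transcripts that cells raise when amino acids run short or when protein folding, heme supply or mitochondria fail. They were chosen by symbol from a fixed list, and all 42 were among the 16137 genes that passed the filter on low counts. RNA was sequenced from HS578T, an established human breast carcinoma line grown with glutamine and insulin. One group, SCR, was transfected with a non-targeting control RNA. The other, siTLN1, received an siRNA against TLN1, which encodes talin-1, the adaptor between integrins and actin. Both groups were co-transfected with GFP, both received the RNA at 1.6 µM and both were collected 48 h later. Each group held 2 libraries, numbered replicate 1 and replicate 2 in the labels and given as biological replicates in the study design. No label says that equal numbers mark cultures prepared together. The count columns also carry numbers, each shared by an SCR and a siTLN1 column, that match no label, so a shared preparation is possible. A fit that takes the replicate numbers as pairs calls more members, 13 lower and 4 higher, against 12% and 10.7% of all genes (given with the alternatives). Further, 1 siRNA treatment of 1 cell line stands behind every comparison.

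ATF4 is a basic leucine zipper factor. Kinases that sense stress phosphorylate the initiation factor eIF2, which slows translation in general but lets ribosomes reach the ATF4 reading frame past its upstream frames. ATF4 then pairs with C/EBP proteins and binds composite elements in promoters of genes for amino acid synthesis, amino acid uptake, tRNA charging and feedback on translation. Because much of this control is translational, the level of ATF4 RNA is not a measure of ATF4 protein.

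Total counts per library ran from 31854322 to 46353297, and member counts from 61 (ASNS) to 73211. TLN1 itself was 9.76 and 9.77 log2 CPM (read counts scaled to library size, as deposited) in SCR against 5.70 and 5.49 in siTLN1, which leaves 5.55% of the SCR level by the fitted change. The label names the cells epithelial. The epithelial markers EPCAM, KRT19 and ESRP1 had at most 6, 6 and 2 counts in any library, and CDH1 stood at 0.0758 RPKM (counts scaled to library size and exon length), whereas KRT18 stood at 38.2 RPKM and the mesenchymal markers VIM, SPARC and FN1 at 746, 1081 and 1448 RPKM in SCR. The blood and endothelial markers PTPRC, CD14 and PECAM1 stood at 0.573 RPKM or less, CD3E had no count and CDH5 at most 7.

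The composite element to which ATF4 and C/EBP proteins bind is usually written TGATGNAAN, with N for any base. It was searched on both strands of RefSeq promoter windows (GRCh38.p14), which run from 250 bases before to 50 bases after a gene's start. A window was found for 34 of the 42 members, and 8 of them held the element (23.5%), against 207 of 11365 tested genes with a window (1.82%) and 3.61% of all 35116 windows. The 4 windows below were chosen because they belong to members on which the results turn: ASNS, whose element is a textbook ATF4 site, SLC7A1, which was lower in siTLN1, MTHFD1L, which was at the upper end of the members, and CHAC1, which differed more between replicate numbers than between groups. Capitals mark the element, written 5′ to 3′ on the strand of the gene.
ASNS, chr7:97872359-97872658, minus strand: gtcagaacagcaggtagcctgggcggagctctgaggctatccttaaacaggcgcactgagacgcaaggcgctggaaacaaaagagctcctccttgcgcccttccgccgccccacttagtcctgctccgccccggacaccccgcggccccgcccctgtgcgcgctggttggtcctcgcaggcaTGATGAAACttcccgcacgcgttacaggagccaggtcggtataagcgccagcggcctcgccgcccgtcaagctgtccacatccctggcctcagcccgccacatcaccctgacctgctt
SLC7A1, chr13:29595639-29595938, minus strand: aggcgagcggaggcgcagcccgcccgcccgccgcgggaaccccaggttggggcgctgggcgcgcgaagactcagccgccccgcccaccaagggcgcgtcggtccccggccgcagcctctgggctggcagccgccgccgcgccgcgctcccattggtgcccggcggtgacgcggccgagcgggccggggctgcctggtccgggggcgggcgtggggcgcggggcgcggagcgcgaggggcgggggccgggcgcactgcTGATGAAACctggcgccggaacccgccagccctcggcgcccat
MTHFD1L, chr6:150866236-150866535, plus strand: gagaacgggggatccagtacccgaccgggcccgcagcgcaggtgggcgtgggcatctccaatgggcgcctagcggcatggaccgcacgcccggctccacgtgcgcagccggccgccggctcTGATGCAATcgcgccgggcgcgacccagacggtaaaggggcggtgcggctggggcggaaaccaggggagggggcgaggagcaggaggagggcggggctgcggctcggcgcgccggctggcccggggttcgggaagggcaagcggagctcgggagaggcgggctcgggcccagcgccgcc
CHAC1, chr15:40953221-40953520, plus strand: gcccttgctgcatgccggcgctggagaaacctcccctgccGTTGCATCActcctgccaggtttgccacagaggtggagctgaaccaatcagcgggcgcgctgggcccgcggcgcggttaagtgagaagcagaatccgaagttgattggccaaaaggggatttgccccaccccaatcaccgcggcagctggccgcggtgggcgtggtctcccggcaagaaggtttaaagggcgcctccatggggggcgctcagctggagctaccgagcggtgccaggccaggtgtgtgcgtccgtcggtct
Counted from the gene's first base as 0, the first base of the element lies at -68 in ASNS, at -129 in MTHFD1L, at -210 in CHAC1 (where the element reads on the opposite strand) and at 7 in SLC7A1. ASNS and SLC7A1 carry the same 9 bases, TGATGAAAC. Among the other holders are 3 tRNA ligase genes. The opposite-strand form GTTGCATCA, as in CHAC1, lies at -188 in AARS1 and at -5 in MARS1. NARS1 holds TGATGCAAC at 14, and SLC3A2, a transporter chain, holds CTTACATCA at 36. The windows of TRIB3, ATF4 and DDIT3 were searched and held no match. Each gene was searched in a single window, so other starts of a gene were not covered. A match describes these letters only, and no binding data were analysed here. The median log2 fold change between siTLN1 and SCR was -0.04 for the 8 members with the element and -0.09 for the members whose window was searched and held none. The members with no window, among them ALDH1L2, PYCR1 and GPT2, are in neither median.

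Before any comparison, the members differed widely in level. Per exon length, control cells ranged from 0.480 RPKM for ASNS to 295 RPKM for SLC7A5, a 614-fold span, with a median of 25.2 RPKM against 3.16 RPKM for all genes tested. In SCR, 8 members exceeded 100 RPKM. They were SLC7A5 (295), STC2 (225), EIF4EBP1 (137), ATF4 (129), SLC3A2 (114), GARS1 (109), PPP1R15A (109) and SLC1A5 (106). These are large neutral and glutamine amino acid transporters, a secreted glycoprotein, a brake on cap-dependent translation, the factor itself, a tRNA ligase and the phosphatase subunit that resets eIF2. By role, the median was 61.3 RPKM for the tRNA ligases with XPOT, 50.2 for the transporters, 24.8 for serine and folate enzymes, 16.4 for transcription factors, 13.3 for signalling genes and 4.99 for other amino acid enzymes.

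**Figure D1:**
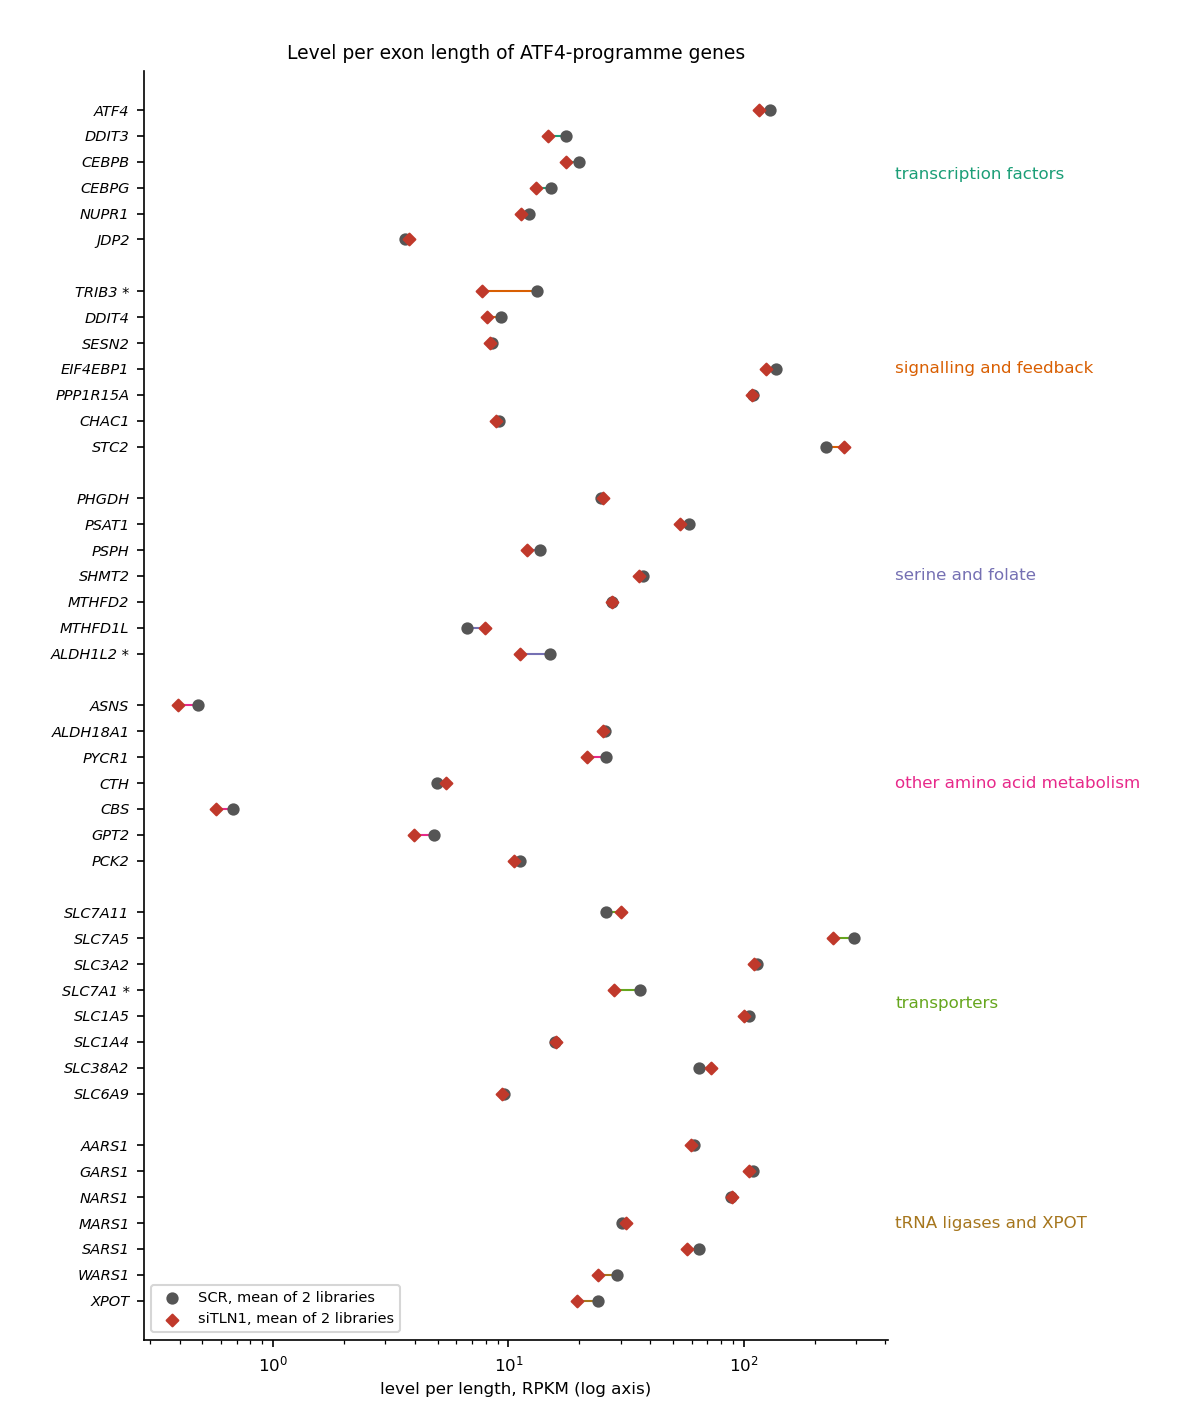
Mean level per exon length of each member in SCR (circles) and siTLN1 (diamonds), in RPKM on a log axis, grouped by role; asterisks mark adjusted p under 0.05. ASNS and CBS lie at the left, at 0.480 and 0.675 RPKM in SCR, while SLC7A5 and STC2 lie at the right, at 295 and 225 RPKM.

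Only 5 members lay under 5 RPKM in SCR: ASNS (0.480), CBS (0.675), JDP2 (3.65), GPT2 (4.83) and CTH (4.99). ASNS makes asparagine, CBS and CTH carry sulfur from homocysteine to cysteine, GPT2 is the mitochondrial alanine aminotransferase and JDP2 is a repressor of the AP-1 family. The value for ASNS is uncertain. On the same strand, 49.3% of its exon bases are shared with another annotated gene, ENSG00000284707. The counting was run with no option for reads that touch several genes, so read pairs in the shared exons were given to neither. Counts ran from 61 to 97 for ASNS and from 3 to 10 for ENSG00000284707.

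The comparison of siTLN1 with SCR asks whether losing talin-1 RNA went with a change of this programme. Of the 42 members, 3 fell and 0 rose at an adjusted p under 0.05 by the quasi-likelihood test of edgeR, adjusted over all genes tested. The genes that fell were TRIB3, ALDH1L2 and SLC7A1. Over all genes tested, 6.07% were called, 3.77% lower and 2.3% higher, and the members' 7.14% called lower stands on 3 genes. At an unadjusted p under 0.05, 8 members were lower and 2 were higher (10.8% and 9.05% over all genes tested). Most members are above the usual level, and calls were more frequent among genes at 5 CPM or more in SCR. Of those genes, 5.16% were called lower and 2.65% higher, and 13.0% and 9.80% at the unadjusted p. DESeq2 called 5 members lower and 0 higher (4.41% and 2.43% of the genes it gave an adjusted p), and limma-trend called 3 lower and 0 higher (3.64% and 2.25% of all genes). Unless said otherwise, limma-trend here used all 4 libraries and no term for the replicate number. The median log2 fold change was -0.09 over the members and 0.00 over all genes tested. Negative values were found for 32 of 42 members, against 7967 of 16137 genes tested. The members' median was -0.25 without SCR replicate 1, 0.05 without SCR replicate 2, -0.01 without siTLN1 replicate 1 and -0.15 without siTLN1 replicate 2, each by limma-trend. In the same order, 37, 17, 22 and 36 members had a negative value. For 31 members the 95% interval of the log2 fold change lay within 0.5 on either side of 0.

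The count of members called moved with single libraries. Each fit with a library left out, also for the medians above, has 1 group with a single replicate number. The groups are then not balanced for replicate number, and the spread used for a gene is pooled largely over genes of like level. Leaving out SCR replicate 1, limma-trend called 6 members lower (TRIB3, ALDH1L2, DDIT4, GPT2, PYCR1 and WARS1) and SLC7A11 higher, against 3.83% and 3.41% of all genes. Leaving out SCR replicate 2 it called 3 lower and 0 higher, against 3.64% and 2.58%. Leaving out siTLN1 replicate 1 it called TRIB3 alone, against 1.5% lower and 0.477% higher among all genes. Leaving out siTLN1 replicate 2 it called TRIB3 lower and SLC7A11 higher, against 2.09% and 1.28%. Changes of scaling or filter in edgeR moved the counts less. The 3 lower members stood against 3.74% of all genes with RLE scaling (2.33% higher), 4.59% with total counts only (3.18% higher) and 3.89% with a mean of at least 10 counts (2.36% higher). Without a filter 2 members were called lower, against 1.19% lower and 0.838% higher among 32708 genes. None of these edgeR settings called a member higher.

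**Figure D2:**
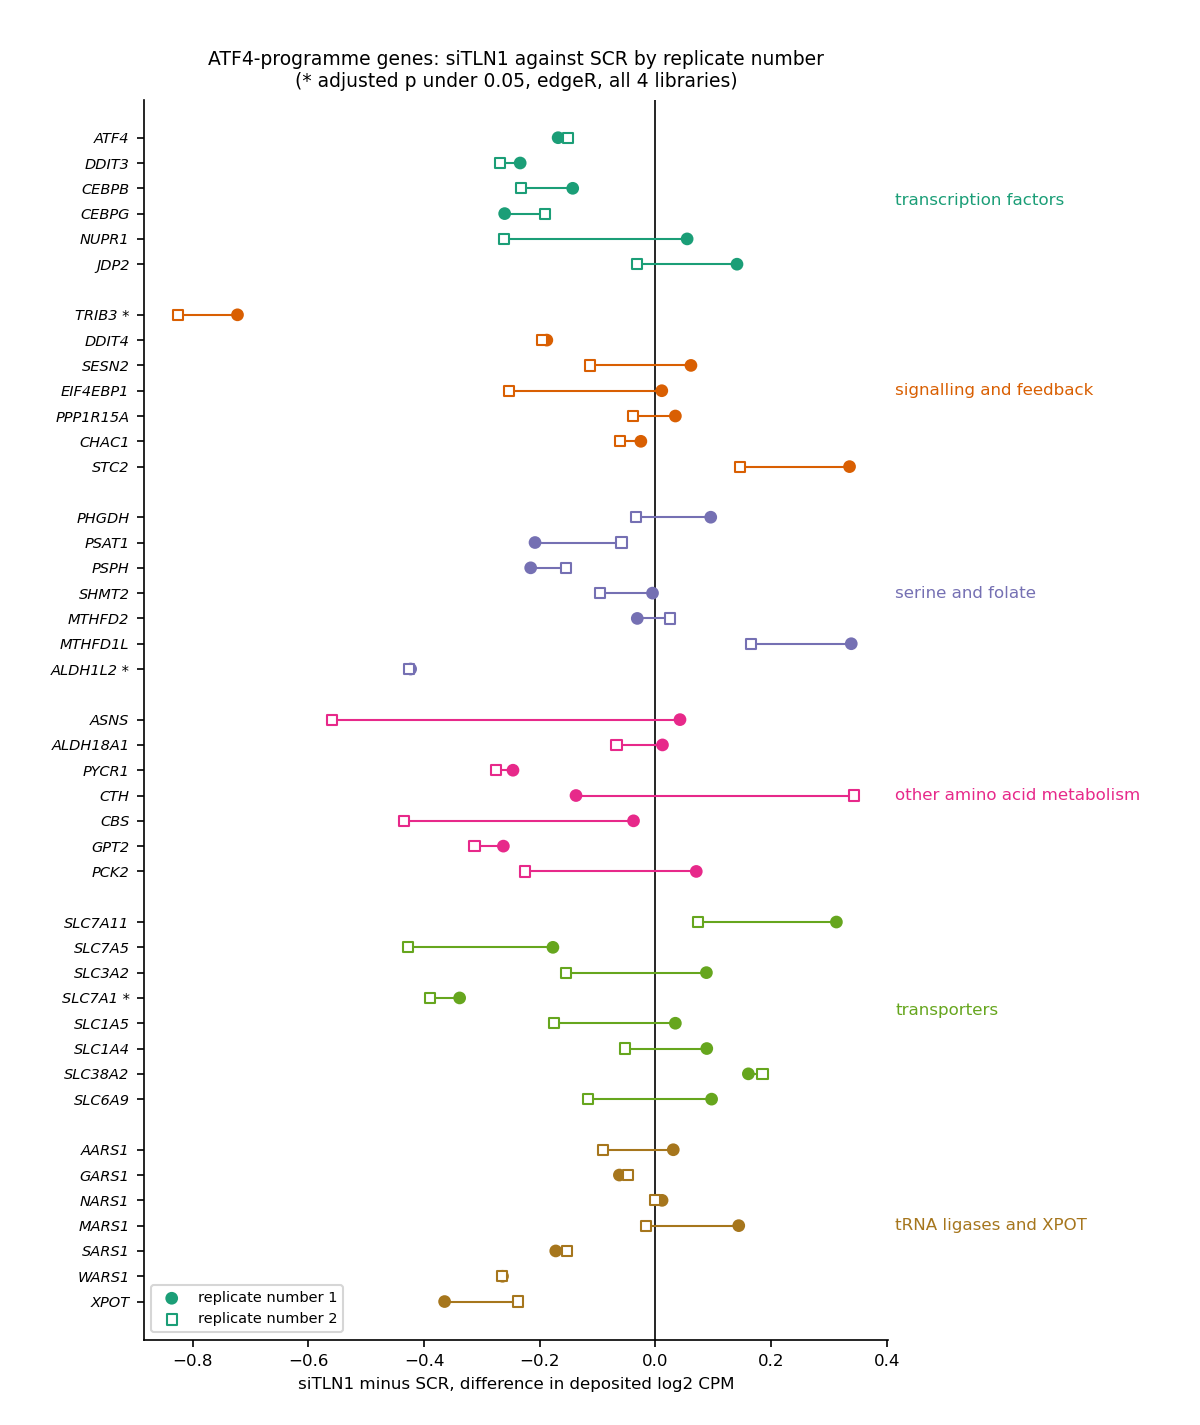
Difference in deposited log2 CPM between siTLN1 and SCR for each member, within replicate number 1 (filled circles) and within replicate number 2 (open squares), joined by a line and grouped by role; asterisks mark adjusted p under 0.05. TRIB3 lies farthest to the left, at -0.72 and -0.83, and 20 members lie left of 0 with both symbols.

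Both replicate numbers gave a lower siTLN1 value for 20 of 42 members (47.6%, against 34.5% over all genes tested). A higher value in both was found for 4 members (9.52%, against 35.4%), namely STC2, MTHFD1L, SLC7A11 and SLC38A2. The remaining 18 differed in sign between the numbers. The median difference was -0.02 within replicate 1 and -0.15 within replicate 2, on the log2 CPM scale. Both siTLN1 libraries lay below both SCR libraries for 10 members (23.8%, against 24.6% over all genes tested) and above them for 3 (7.14%, against 23.9%).

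Among signalling and feedback genes, TRIB3 (ENSG00000101255.11; GRCh38, chromosome 20, 362835 to 397559, plus strand) changed most. It encodes a pseudokinase that is induced by ATF4 and CHOP and restrains ATF4 in turn. Its log2 CPM was 5.14 and 5.50 in SCR replicates 1 and 2 and 4.42 and 4.68 in siTLN1 replicates 1 and 2. The groups did not overlap, and replicate 2 was the higher library in each. TRIB3 went from 5.32 ± 0.26 (SD, n = 2) to 4.55 ± 0.19 (SD, n = 2) log2 CPM, and the log2 fold change was -0.78 ± 0.13 (SE) with edgeR's adjusted p at 0.00338. This corresponds to 58.2% of the SCR level. The call held in each of the 4 fits that left out a library, with log2 fold changes from -0.96 to -0.59.

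STC2 (ENSG00000113739.10; chromosome 5, 173314713 to 173329503, minus strand), a secreted glycoprotein induced by endoplasmic reticulum stress, had the highest level per length of this group. Its log2 CPM was 10.39 and 10.46 in SCR and 10.73 and 10.61 in siTLN1. Both siTLN1 libraries lay above both SCR libraries, yet the fitted log2 fold change of 0.24 (standard error 0.10) missed the threshold, with an adjusted p of 0.197 by edgeR. The other 5 signalling members had log2 fold changes from -0.19 (DDIT4) to 0.00 (PPP1R15A), and none passed the test. DDIT4 and SESN2 inhibit mTORC1, EIF4EBP1 binds the cap-binding factor eIF4E, PPP1R15A directs a phosphatase to eIF2, and CHAC1 degrades glutathione. For EIF4EBP1, SESN2 and CHAC1 the values were -0.13, -0.03 and -0.04.

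Of the 6 transcription factors, none passed edgeR's test, DESeq2 or limma-trend. By edgeR 1 (DDIT3) was lower at an unadjusted p under 0.05, as were 10.8% of all genes tested. With the replicate numbers taken as pairs, limma-trend called DDIT3, CEBPB and CEBPG lower, against 12% of all genes tested. ATF4 (ENSG00000128272.14; chromosome 22, 39519695 to 39522685, plus strand) measured 8.23 and 8.45 log2 CPM in SCR and 8.06 and 8.30 in siTLN1. The SCR and siTLN1 values interleave, since siTLN1 replicate 2 lay above SCR replicate 1. Its log2 fold change was -0.16, with a 95% interval from -0.39 to 0.07 and an adjusted p of 0.457 by edgeR. Within replicate 1 the difference was -0.17 and within replicate 2 it was -0.15. The annotation names 4 pseudogenes of ATF4, and reads that align to several places were not counted.

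DDIT3 (ENSG00000175197.12; chromosome 12, 57516588 to 57521737, minus strand) encodes CHOP, the partner of ATF4 that drives the later phase of the response. It stood at 4.41 and 4.63 log2 CPM in SCR and at 4.18 and 4.36 in siTLN1. The groups did not overlap, though siTLN1 replicate 2 lay close under SCR replicate 1. The log2 fold change of -0.25 (95% interval -0.50 to -0.01) had an adjusted p of 0.236 by edgeR. Of the exon bases of DDIT3, 31.6% lie on the strand opposite to other annotated genes and 8.03% are shared on its own strand, and counting used no strand option although the labels name a stranded library kit, so reads of the overlapping genes are not assigned by strand. Over 5% of exon bases lie opposite another gene in 13 members and none do in 27, which include TRIB3 and SLC7A1, while ALDH1L2 has 2.91%. Pseudogenes of like name are annotated for 12 members. CEBPB and CEBPG, the C/EBP partners of ATF4, had log2 fold changes of -0.19 and -0.22. NUPR1, a small stress-induced chromatin protein, and JDP2 had values of -0.12 and 0.05.

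**Figure D3:**
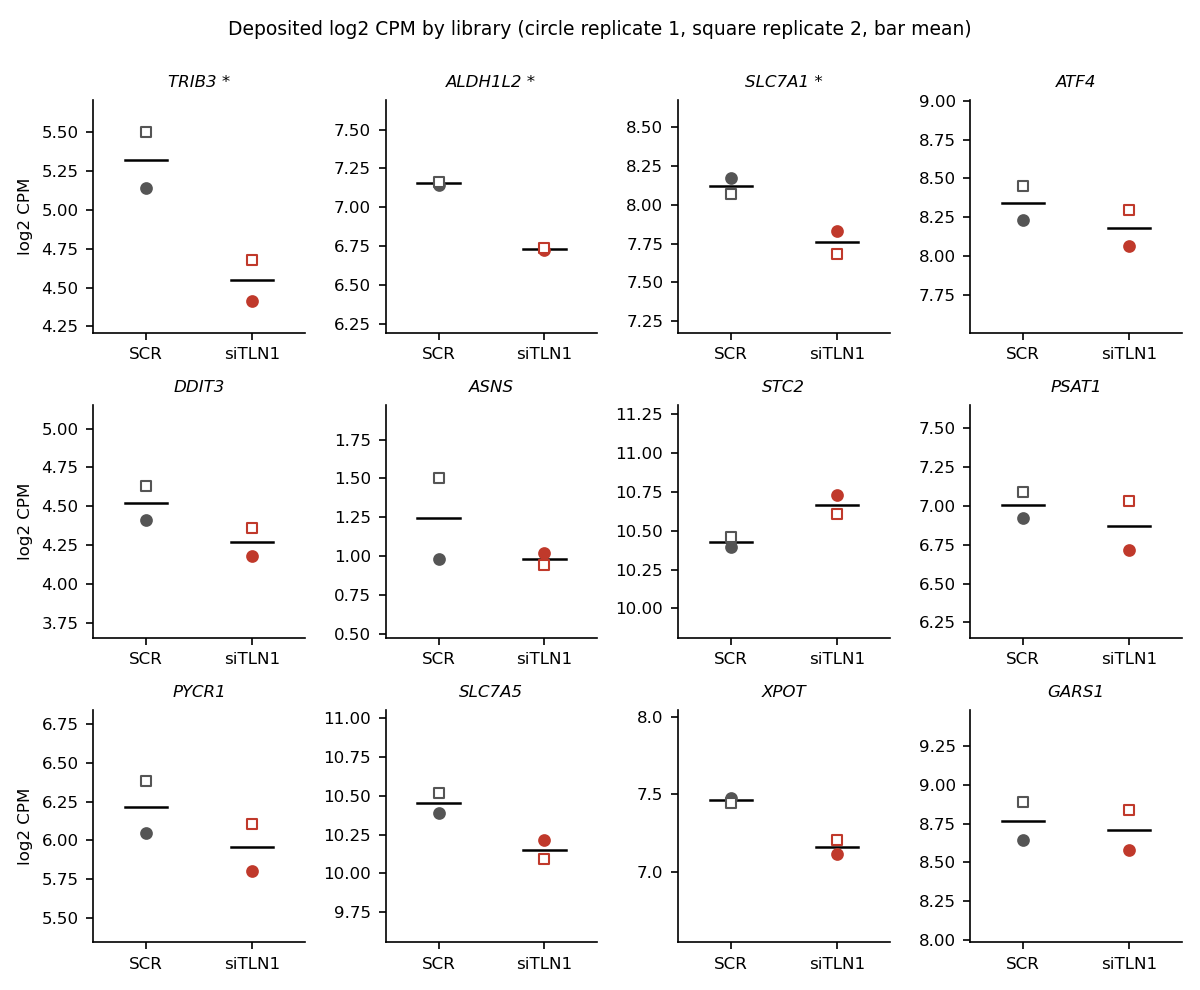
Deposited log2 CPM of 12 members in each library, with SCR and siTLN1 side by side, replicate 1 as circles, replicate 2 as squares and a bar at the mean; every panel spans the same 1.5 log2 units and asterisks mark adjusted p under 0.05. ALDH1L2 shows the narrowest replicates, with SDs of 0.01 in both groups, whereas the SCR and siTLN1 symbols of ATF4, ASNS, PSAT1, PYCR1 and GARS1 overlap.

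In the serine and folate group, ALDH1L2 alone passed the test. ALDH1L2 (ENSG00000136010.14; chromosome 12, 105019784 to 105107643, minus strand) is the mitochondrial formyltetrahydrofolate dehydrogenase, which oxidises formyl groups and yields NADPH. It measured 7.14 and 7.16 log2 CPM in SCR against 6.72 and 6.74 in siTLN1. The drop was nearly identical in both replicate numbers, at -0.42 and -0.43. The mean went from 7.15 ± 0.01 (SD, n = 2) to 6.73 ± 0.01 (SD, n = 2), and the log2 fold change was -0.42 ± 0.09 (SE) with edgeR's adjusted p at 0.00914, which leaves 74.5% of the SCR level. With limma-trend, the call was lost without siTLN1 replicate 1 (adjusted p 0.104) and without siTLN1 replicate 2 (0.0597), while the log2 fold change stayed between -0.43 and -0.42.

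MTHFD1L, which makes formate in mitochondria, had the largest positive log2 fold change of all members. Its log2 CPM was 4.98 and 5.14 in SCR and 5.32 and 5.31 in siTLN1. The groups did not overlap, but the log2 fold change of 0.25 (95% interval 0.04 to 0.46) had an adjusted p of 0.169 by edgeR. Its promoter, printed above, holds the element in the form TGATGCAAT.

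PSAT1 (ENSG00000135069.14; chromosome 9, 78297125 to 78330093, plus strand), the transaminase of serine synthesis, had the highest level per length among these enzymes. Its values were 6.92 and 7.09 log2 CPM in SCR and 6.72 and 7.03 in siTLN1, which overlap between groups. The log2 fold change was -0.13 with an adjusted p of 0.590 by edgeR. For PHGDH, the first enzyme of serine synthesis, it was 0.03, and for PSPH, the last, -0.18. SHMT2 and MTHFD2, which move one-carbon units from serine into the mitochondrial folate pool, had values of -0.05 and 0.00. MTHFD2 shares 33.6% of its exon bases with opposite-strand genes, and 7 pseudogenes carry its name, so its count is uncertain.

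No gene of the other amino acid enzymes passed edgeR, DESeq2 or limma-trend on all 4 libraries. By edgeR 1 of 7 (GPT2) was lower at an unadjusted p under 0.05, as were 10.8% of all genes tested. GPT2 and PYCR1 were called lower by limma-trend without SCR replicate 1, and also with the replicate numbers taken as pairs. That paired fit called 12% of all genes tested lower. The median log2 fold change of the group was -0.24 by edgeR. ASNS (ENSG00000070669.17; chromosome 7, 97851677 to 97872542, minus strand) measured 0.98 and 1.51 log2 CPM in SCR and 1.02 and 0.95 in siTLN1. SCR replicate 2 was the high library, and the other 3 libraries lay close together. The log2 fold change of -0.30 (standard error 0.23, adjusted p 0.513 by edgeR) was 0.00 by limma-trend without SCR replicate 2.

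PYCR1 (ENSG00000183010.17; chromosome 17, 81932384 to 81942412, minus strand), which makes proline in mitochondria, stood at 6.05 and 6.38 log2 CPM in SCR and 5.80 and 6.11 in siTLN1. Within each replicate number siTLN1 was lower, by -0.25 and -0.28, but siTLN1 replicate 2 lay above SCR replicate 1. Its log2 fold change was -0.26 with an adjusted p of 0.283 by edgeR, and without SCR replicate 1 limma-trend gave -0.43 with an adjusted p of 0.0136. GPT2 had -0.29, CBS -0.24, PCK2 (mitochondrial phosphoenolpyruvate carboxykinase) -0.09 and ALDH18A1 (the first enzyme of proline synthesis) -0.03. CTH was at 0.12.

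The transporters held 1 gene that fell. SLC7A1 (ENSG00000139514.13; chromosome 13, 29509414 to 29595688, minus strand) is the main carrier of arginine and lysine into the cell. Its log2 CPM was 8.17 and 8.07 in SCR and 7.83 and 7.68 in siTLN1. The groups did not overlap, and, unlike for most members, replicate 2 was the lower library in each. The mean went from 8.12 ± 0.07 (SD, n = 2) to 7.76 ± 0.11 (SD, n = 2), and the log2 fold change was -0.36 ± 0.10 (SE) with edgeR's adjusted p at 0.0316, which leaves 77.7% of the SCR level. Without a filter on low counts, edgeR gave an adjusted p of 0.0664. With limma-trend, the call was lost without SCR replicate 1 (adjusted p 0.135), without siTLN1 replicate 1 (0.0834) and without siTLN1 replicate 2 (0.265).

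Only 2 members, SLC7A1 and STC2, hold the 7-base word GACAACA in the 3′ UTR of their GENCODE 29 transcript with the longest coding sequence. Earlier work on these libraries singled out this word because transcripts with it tended to be lower in siTLN1. The fold changes of genes with the word are therefore no test of it. Over tested genes with a 3′ UTR, the median log2 fold change was -0.098 with the word there and 0.0129 without. Over the members it was -0.06 for the 2 with the word and -0.09 for the others. The members' share with the word is 4.76%, against 7.45% of the 12639 tested genes with a 3′ UTR (941 genes). Both sites are shown with the word in capitals, because they belong to members that lay at opposite ends of the list.
SLC7A1, bases 4953 to 4959 of its 3′ UTR: ccctttttgctGACAACActgtgtacatt
STC2, bases 1611 to 1617 of its 3′ UTR: aagcagccataGACAACAcacaaacgaga
SLC7A1 was lower in siTLN1 and the STC2 libraries lay higher. The coding sequences of PHGDH, GPT2, AARS1 and SARS1 also hold the word. So does 1 of 4 protein-coding transcripts of TRIB3, outside the one chosen. The chosen TRIB3 transcript has a 3′ UTR of only 58 bases. The search of all transcripts covered coding sequence and 3′ UTR together. The TRIB3 copy may therefore lie in a 3′ UTR that the count of 2 members leaves out. No transcript searched of ALDH1L2 holds the word.

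SLC7A5 (ENSG00000103257.9; chromosome 16, 87830023 to 87869507, minus strand), the light chain of the large neutral amino acid transporter, was the most abundant member per length. It measured 10.39 and 10.52 log2 CPM in SCR and 10.21 and 10.09 in siTLN1. The groups did not overlap, and the log2 fold change of -0.30 (95% interval -0.52 to -0.08) had an adjusted p of 0.101 by edgeR and 0.0468 by DESeq2. SLC3A2, the heavy chain that SLC7A5 needs at the membrane, was at -0.04, with groups that overlap. SLC1A5 and SLC38A2, which bring in glutamine, had values of -0.08 and 0.17, and SLC1A4 and SLC6A9, carriers of serine and glycine, had 0.02 and -0.02. None of these passed the test.

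Among the tRNA ligases and XPOT, none passed edgeR or limma-trend, DESeq2 called XPOT lower, and 2 of 7 (XPOT and WARS1) were lower at an unadjusted p under 0.05 by edgeR, a rule that 10.8% of all genes tested met. With the replicate numbers taken as pairs, limma-trend called XPOT, WARS1 and SARS1 lower, against 12% of all genes tested. XPOT (ENSG00000184575.12; chromosome 12, 64404392 to 64451125, plus strand) exports tRNAs from the nucleus. Its log2 CPM was 7.48 and 7.44 in SCR and 7.11 and 7.21 in siTLN1. The groups lay apart, and the log2 fold change of -0.30 (95% interval -0.49 to -0.11) had an adjusted p of 0.0631 by edgeR and 0.0482 by DESeq2.

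GARS1 (ENSG00000106105.14; chromosome 7, 30594838 to 30634033, plus strand), the glycine ligase, had the highest level per length of this group. Its values of 8.65 and 8.89 log2 CPM in SCR and 8.58 and 8.84 in siTLN1 overlap, and its log2 fold change was -0.05 (95% interval -0.29 to 0.18, adjusted p 0.854 by edgeR). By limma-trend it was 0.07 without SCR replicate 2 and 0.07 without siTLN1 replicate 1. The alanine, asparagine and methionine ligase genes AARS1, NARS1 and MARS1, whose promoters hold the element, had values of -0.03, 0.01 and 0.06. For the serine and tryptophan ligases SARS1 and WARS1 they were -0.16 and -0.26.

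Most members differed more between replicate numbers than between siTLN1 and SCR. Replicate 2 lay above replicate 1 in both groups for 32 of 42 members (76.2%, against 32.1% over all genes tested), and below it in both for 3 (7.14%, against 31.4%), which were SLC7A1, SLC7A11 and SLC38A2. The median difference between replicate 2 and replicate 1 was 0.22 log2 CPM in SCR and 0.14 in siTLN1, where all genes tested had a median of 0.00 in each. For 27 members (64.3%, against 35.4% over all genes tested) the replicate differences together exceeded the group differences together in size. By role, the count of members with replicate 2 higher in both groups was 6 of 6 transcription factors, 6 of 7 signalling genes, 6 of 7 serine and folate enzymes, 6 of 7 tRNA ligases with XPOT, 4 of 7 other enzymes and 4 of 8 transporters. What the numbers share was not tested, since the labels do not say it.

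**Figure D4:**
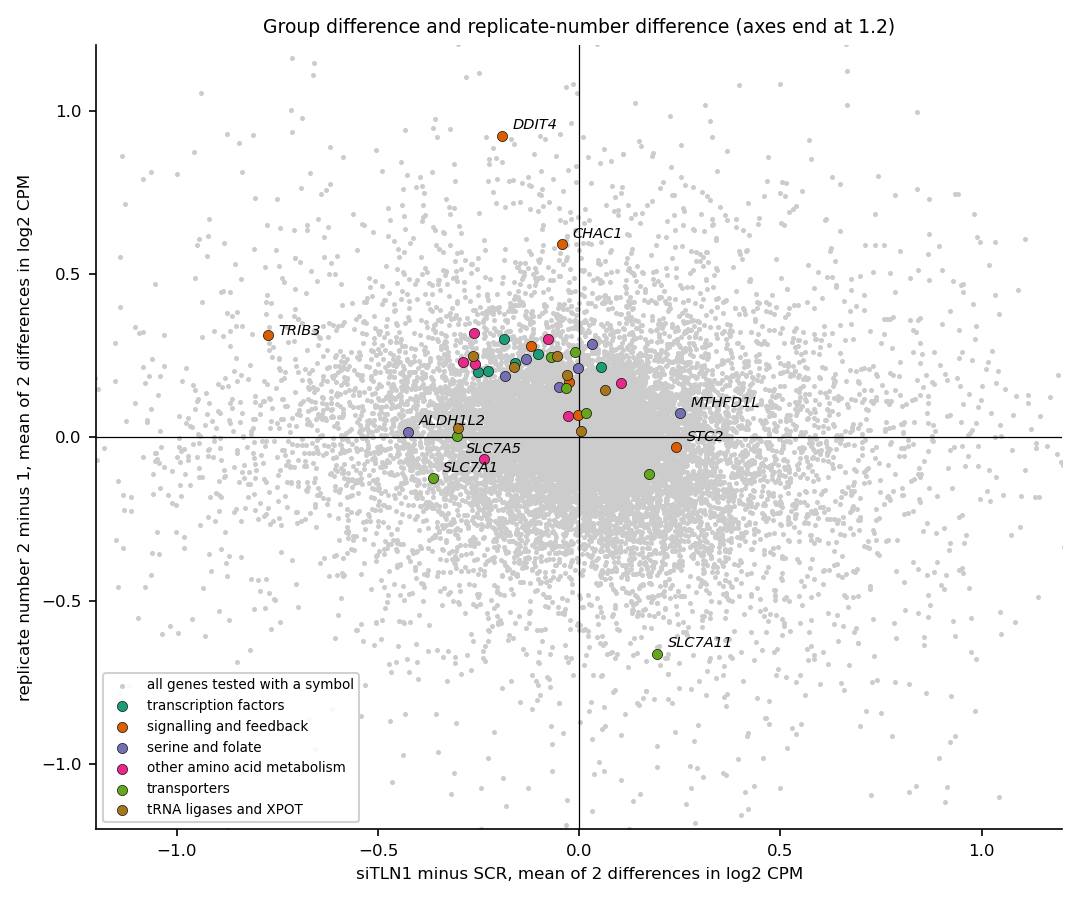
Mean difference between siTLN1 and SCR (horizontal) against mean difference between replicate number 2 and 1 (vertical), both in log2 CPM, for all tested genes with a symbol (grey) and the members (coloured by role); the axes end at 1.2, which leaves some genes outside. Most members lie above the horizontal line, DDIT4 and CHAC1 highest at 0.92 and 0.59, and SLC7A11 lies lowest at -0.66.

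DDIT4, CHAC1 and SLC7A11, chosen after their values were seen, show the size of this difference. DDIT4 stood at 3.72 and 4.64 log2 CPM in SCR and at 3.53 and 4.45 in siTLN1. The step from replicate 1 to replicate 2 was 0.93 in SCR and 0.92 in siTLN1, against group differences of -0.19 and -0.20, and opposite-strand genes share 41.2% of its exon bases. CHAC1 stood at 3.89 and 4.50 in SCR and at 3.87 and 4.44 in siTLN1, with steps of 0.61 and 0.57. SLC7A11, which imports cystine for glutathione synthesis, went the other way, with 8.21 and 7.67 in SCR and 8.52 and 7.74 in siTLN1. The fitted log2 fold changes of DDIT4, CHAC1 and SLC7A11 were -0.19, -0.04 and 0.22, with 95% intervals of -2.10 to 1.73, -0.66 to 0.57 and -1.10 to 1.54. The intervals of DDIT4 and SLC7A11 are wide enough to hold a change of 2-fold in either direction. They come from the fit with no term for the replicate number, which counts the step between numbers as spread.

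Further genes of the same pathway were read from lists that do not overlap the members. Of 22 other genes linked to ATF4 and CHOP, 1 rose and 0 fell, where 2.3% of all genes tested were called higher and 3.77% lower. It was KLHL24, a ubiquitin ligase adaptor, which went from 4.10 and 4.18 log2 CPM in SCR to 4.88 and 4.84 in siTLN1, a log2 fold change of 0.72 ± 0.10 (SE) with edgeR's adjusted p at 0.000474. The median of the list was 0.01, ATF3 was at -0.13, ATF5 at -0.15 and GADD45A at -0.27, and the transcripts for the 7 further tRNA ligases of the list ranged from -0.23 (CARS1) to 0.20 (VARS1). At an unadjusted p under 0.05 by edgeR, 3 of the 22 were lower (13.6%, against 10.8% of all genes tested). DESeq2 and limma-trend each called KLHL24 alone. With the replicate numbers taken as pairs, limma-trend called 3 lower and 3 higher, against 12% and 10.7% of all genes.

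Among amino acid transporters outside the members, some rose. Of 13, 11 were tested and 3 rose while 0 fell, against 2.3% of all genes tested called higher, and the median log2 fold change was 0.24. SLC1A1, a glutamate carrier, went from 5.28 and 5.35 log2 CPM in SCR to 5.91 and 5.90 in siTLN1 (log2 fold change 0.59, adjusted p 0.00119 by edgeR). SLC7A2, a carrier of cationic amino acids like SLC7A1, went from 5.88 and 5.66 to 6.49 and 6.19 (0.57, adjusted p 0.00894 by edgeR). SLC43A1, a carrier of large neutral amino acids like SLC7A5, went from 3.92 and 3.85 to 4.36 and 4.29 (0.43, adjusted p 0.0269 by edgeR). SLC7A2 was higher and SLC7A1 lower in siTLN1 within both replicate numbers. By limma-trend the call of SLC7A2 was lost without siTLN1 replicate 1 (adjusted p 0.151), and that of SLC43A1 was lost without SCR replicate 2 (0.0785), without siTLN1 replicate 1 (0.295) and without siTLN1 replicate 2 (0.113). At an unadjusted p under 0.05 by edgeR, 5 of the 11 were higher (45.5%, against 9.05% of all genes tested) and 0 lower (against 10.8%). DESeq2 and limma-trend called the same 3 genes higher and 0 lower. With the replicate numbers taken as pairs, limma-trend called 6 of the 11 higher and 0 lower, against 10.7% and 12% of all genes.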

How the data were processed

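Raw gene counts were deposited by the authors; per the file headers, featureCounts 2.0.0 counted read pairs against GENCODE 33 without a strand option. Libraries were made with a stranded mRNA kit, per the labels' protocols. STAR 2.7.9a, edgeR 3.34.1 and GRCh38 are named in the submitters' processing notes. Exon lengths in bases, the other deposited measure used, come from the same table. From the authors there are also log2 CPM values for 16137 genes, whose making is not given in the sources used here. These columns are numbered by replicate as in the labels, whereas the names of the count columns tie them to a group only. The values of the count columns were not matched to the numbered columns. Values by library are therefore the deposited log2 CPM, and tests use the counts.

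Counts were filtered with filterByExpr (minimum count 10), scaled by TMM and tested with edgeR 4.0.16 in R 4.3.3 (robust quasi-likelihood, no term for the replicate number), with Benjamini-Hochberg adjustment over 16137 genes and a threshold of 0.05. RPKM values are TMM-scaled counts per exon length. SDs are over 2 libraries. The p values weigh a group difference against a spread between libraries that each fit moderates over all genes. They do not measure a gene's own spread alone. Standard errors and intervals of edgeR were derived from the log2 fold change and the test statistic. An exact permutation test of 2 against 2 cannot go below a p of 0.333. Alternatives used RLE scaling, total counts, 2 other filters, DESeq2 1.42.0 and limma-trend (limma 3.58.1) on the deposited values, also with a replicate block and without each library. The edgeR test was also run on simulated counts with 2-fold changes and no step between replicate numbers. That check does not cover smaller changes or such a step.

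The members and lists were chosen with earlier results of these data known, so their counts are descriptions. Values by library are given for members past the threshold, for ATF4, DDIT3 and ASNS, and, in each of 6 roles, for the largest change and the highest level per length. Of other lists, up to 4 genes past the threshold are named. MTHFD1L, DDIT4, CHAC1 and SLC7A11 were added after their values were seen. Symbols were matched for 16085 of the genes.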

Additional observations from a re-analysis of the deposited data

How the results depend on the processing

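With all 4 libraries and no term for the replicate number, the 3 lower members stayed 3 under RLE scaling, total counts only, a mean of at least 10 counts and limma-trend. They became 5 with DESeq2, which adds SLC7A5 and XPOT, and 2 without a filter on low counts, where 32708 genes were tested. The cause was not tested for either change. Leaving out 1 library in limma-trend gave 1 to 6 lower members, 0 to 1 higher members, 319 to 1169 changed genes (544 without siTLN1 replicate 2) and a median over the members from -0.254 to 0.0497. TRIB3 was called in each of these fits. Reversed signs were found with a library left out, for ASNS (0.0041 without SCR replicate 2), GARS1 (0.0655 without SCR replicate 2 and 0.0728 without siTLN1 replicate 1) and PSAT1 (0.0239 without siTLN1 replicate 1); the cause was not tested. Limma-trend draws the spread of a gene largely from genes of like level. A call in these fits therefore need not reflect the spread of that gene's own libraries. In these fits a difference between replicate numbers can enter the group difference.

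The replicate numbers were checked for pairing. Differences between replicates 2 and 1 correlated across genes between the groups with a coefficient of 0.19 over all genes and 0.541 over those with at least 5 CPM in SCR. With 2 pairs and no label that states a shared preparation, the numbers were not used as pairs. The count columns carry numbers shared between groups, which leaves a shared preparation possible. Fitted with a replicate block, limma-trend called 3650 genes, where it called 951 without the block and edgeR called 980. Among the members 13 were then lower and 4 higher (12% and 10.7% over all genes). Beside TRIB3, ALDH1L2 and SLC7A1, the lower ones were DDIT3, CEBPB, CEBPG, PSPH, PYCR1, GPT2, SLC7A5, XPOT, SARS1 and WARS1, and the higher ones were STC2, MTHFD1L, SLC38A2 and SLC7A11. A member that missed the threshold without the block is therefore not shown to be unchanged. Calls with the block rest largely on a spread pooled over genes of like level.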

Other observations

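Upstream of ATF4, none of 14 genes for eIF2 kinases, eIF2B subunits and their partners passed edgeR, DESeq2 or limma-trend, and 0 had an unadjusted p under 0.05 by edgeR. Their median log2 fold change was 0.02, from -0.15 for EIF2AK1 (the heme-regulated kinase) to 0.15 for PPP1R15B (a constitutive eIF2 phosphatase subunit). EIF2AK3, the kinase of the endoplasmic reticulum, was at 0.06 and EIF2AK4, which senses uncharged tRNA, at -0.14.

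The 7 tRNA ligase genes outside the ATF4 programme had a median of 0.05. None passed edgeR, DESeq2 or limma-trend, and 1 had an unadjusted p under 0.05 by edgeR, QARS1 at 0.25. Replicate 2 lay above replicate 1 in both groups for 3 of these 7, where it did so for 6 of the 7 member genes of tRNA charging and export.

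Chaperones and other targets of the IRE1 and ATF6 branches, 10 genes, had a median log2 fold change of -0.10, and 9 of them were lower in siTLN1 within both replicate numbers, against 34.5% of all genes tested. By edgeR and limma-trend 0 passed, 1 had an unadjusted p under 0.05 by edgeR, and DESeq2 called 1 lower. That gene was PDIA4, a disulfide isomerase, at -0.33 (adjusted p 0.0684 by edgeR). CALR was at -0.22 and HSPA5, the main chaperone of the lumen, at -0.08. Of 8 other folate cycle genes, 0 passed edgeR, DESeq2 or limma-trend and 2 had an unadjusted p under 0.05 by edgeR, MTHFD2L at -0.44 and TYMS at -0.23. Replicate 2 lay below replicate 1 in both groups for 5 of these 8, a direction opposite to that of most ATF4 members. Limma-trend here used all 4 libraries without the replicate block. With the block it called PDIA4, CALR, MTHFD2L and TYMS lower and QARS1 higher, against 12% and 10.7% of all genes. At an unadjusted p under 0.05 by edgeR, 10.8% of all genes tested were lower and 9.05% higher.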
